A study of Mus musculus with 2 samples.

Results

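The endothelial nuclei of mouse inguinal white adipose tissue (iWAT), the subcutaneous fat depot of the groin, are described here. They were chosen by the transcripts they held. A member was a barcode with 500 or more genes detected and a mitochondrial share of 5% or less of its UMIs (unique molecular identifiers, each standing for a captured RNA molecule) that had a UMI of at least 3 of the 10 endothelial genes Ptprb, Cyyr1, Flt1, Mecom, Cdh5, Pecam1, Erg, Adgrl4, Emcn and Rasip1. It was allowed at most 1 of the adipocyte genes Plin1, Plin4, Cidec and Lipe and at most 1 of Pdgfra, Bmper and Adamts12, which mark adipose stem and progenitor cells (ASPCs). This gave 134 members among 6593 kept nuclei. The library labelled WT, called the WT-labelled library below, held 48 of them among 3649 kept nuclei, and the library labelled KO held 86 among 2944.

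Both libraries were single-nucleus RNA-Seq of iWAT from male mice fed a Western diet, each made from the pooled tissue of 3 mice, with the lymph node left out during dissection per the labels. The question of the study was what the loss of the long noncoding RNA Lexis from adipocytes does to the cells of the depot. The labels call the groups Lexis WT and Lexis KO. In the methods of the study the deletion is a floxed Lexis allele (Lexis fl) crossed with Adipoq-cre, a Cre driven by the adiponectin promoter and so active in adipocytes and not aimed at endothelium, with littermates as controls, on a C57BL/6 background. The age of these mice was not given in the labels. The deposited file names carry the opposite genotype to the labels for both libraries. Lexis has no row in the matrices, so the targeted gene could not check either name, and the direction of every difference below rests on the label. With 1 library per genotype no difference between the libraries could be tested. The intervals cover counting error only and not the spread between mice or nucleus preparations.

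Endothelial cells line every vessel. In white fat most of them sit in capillaries, where GPIHBP1 carries lipoprotein lipase to the luminal face, CD36 takes up the released fatty acids and FABP4 binds them inside the cell. Arterial endothelium is marked by ephrin B2, SOX17 and Notch ligands, venous endothelium by the nuclear receptor NR2F2 and by ACKR1, and lymphatic endothelium by PROX1, the transcription factor that sets lymphatic identity. High endothelial venules are the vessels through which lymphocytes enter lymph nodes, and their cells make the L-selectin ligand GLYCAM1 and the enzymes that decorate it.

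The members held few UMIs. The median was 1354.5 UMIs per nucleus (range 764 to 11900) in the WT-labelled library and 1772.5 (727 to 7285) in the KO-labelled library, and the median number of detected genes was 867.5 and 1069.5. The other kept nuclei were at a median of 1207 and 4072 UMIs. Members together gave 101049 and 193026 UMIs, so a single UMI of a gene came to 9.90 CPM (UMIs scaled to the summed total of the members) in the first library and 5.18 CPM in the second. No member barcode was shared between the libraries, although 12 of the 5000 barcodes in each matrix were.

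The label was first set against genes the rule did not use. The summed level of 28 other pan-endothelial genes, among them Tek, Tie1, Kdr, Egfl7 and Cldn5, was 6878 CPM in members and 1001 CPM in other nuclei of the WT-labelled library. In the KO-labelled library the same sum was 14278 and 1683 CPM. Nuclei with 0 rule genes and within the adipocyte and ASPC limits were at 915 and 1154 CPM. Just outside the threshold, at 2 rule genes, lay 40 nuclei at 3761 CPM in the WT-labelled library and 11 nuclei at 4603 CPM in the KO-labelled library. Just inside it, at 3 rule genes, lay 16 nuclei at 4418 CPM and 19 nuclei at 8772 CPM. Members labelled WT sat close to the edge of the rule, with 0 nuclei above 8 rule genes, whereas 13 members labelled KO held 9 and 4 held all 10.

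**Figure D1:**
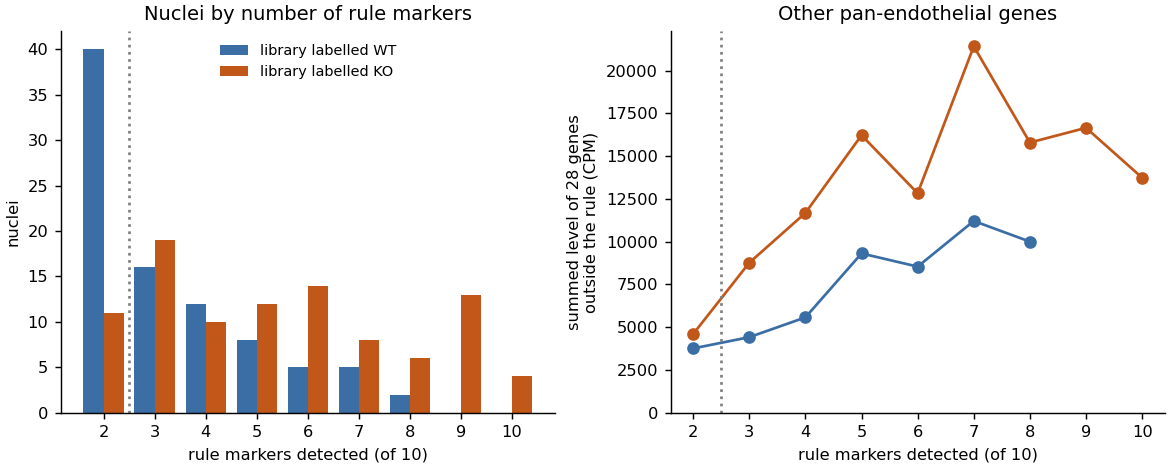
Left, bars give the number of nuclei (y axis) by how many of the 10 rule genes had a UMI (x axis) in each library, among nuclei within the adipocyte and ASPC limits, and the dotted line is the threshold of 3. Right, points give the summed level of 28 pan-endothelial genes outside the rule in CPM (y axis from 0) for the same nuclei, which reached 11213 CPM at 7 rule genes in the WT-labelled library and 21425 CPM in the KO-labelled library.

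The genes outside the rule that were most raised in members over other nuclei were mostly known endothelial genes in both libraries. This is a description, because the rule selected on the same nuclei. Gpihbp1 (chr15:75596630-75598213, GRCm38) was 60.5-fold and 71.6-fold higher in members than in other nuclei of the libraries labelled WT and KO. A single nucleus gave 51 of the 94 counts labelled WT, and without it the level was 469 CPM beside 15.4 CPM in other nuclei. Ushbp1 was 45.6-fold and 85.1-fold higher, Shank3 40.6-fold and 81.8-fold, and Btnl9 36.6-fold and 132-fold. Egfl7, a secreted factor of the vessel wall, was 35.7-fold and 54.8-fold higher, and Cldn5, the tight junction protein claudin 5, was 28.7-fold and 93.5-fold higher. Car4, a carbonic anhydrase on the capillary surface, and the water channel Aqp1 belonged to the same set. So did Cdh13, the adiponectin-binding cadherin, at 48.2-fold and 37.3-fold. Hmcn1 was also in the set, at 22.1-fold and 26.6-fold. Rbp7 was at 39.1-fold and 43.6-fold, but 19 of its 21 counts labelled WT were in 1 nucleus. For Cldn5, Btnl9 and Aqp1, whose fold was larger among nuclei labelled KO, the level in the other nuclei was also lower there, at 3.71, 2.74 and 7.06 CPM, while it was 28.6, 7.04 and 26.1 CPM among those labelled WT.

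Members made up 1.32% of kept nuclei in the WT-labelled library (48 of 3649, exact 95% interval 0.971 to 1.74) and 2.92% in the KO-labelled library (86 of 2944, 2.34 to 3.60). The difference was 1.61 percentage points (0.888 to 2.36). It depended on what the members were divided by. Nuclei with at least 2 B cell or at least 2 T cell genes numbered 2496 in the WT-labelled library and 244 in the KO-labelled library. Without them in the denominator the members were 4.16% of 1153 and 3.19% of 2700 nuclei, and the difference was -0.978 points (-2.44 to 0.326). At a limit of 1% mitochondrial UMIs it was -0.471 points (-1.33 to 0.419), and with at least 1000 detected genes it was 0.423 points (-0.620 to 1.30).

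A further 25 nuclei of the WT-labelled library and 62 of the KO-labelled library had at least 3 rule genes but were left out by the limits on other classes, 21 and 61 of them by adipocyte genes. Their median depth was 5262 and 4235.5 UMIs, well above that of the members. The share of nuclei left out was 34.2% and 41.9% of those with 3 or more rule genes.

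Transcripts of other cell types were found in members of both libraries, in amounts that differed between them. At least 2 of 8 B cell genes were seen in 27.1% of members labelled WT and 3.49% of members labelled KO, where the other nuclei were at 55.3% and 6.30%. The summed B cell list was at 1475 and 145 CPM in members and the T cell list at 327 and 5.18 CPM. At least 2 of 8 adipocyte genes were seen in 35.4% and 86.0% of members, beside 27.4% and 84.8% of other nuclei, with summed levels of 802 and 2663 CPM. Myeloid genes were at 2464 and 2808 CPM in members and at 4010 and 2743 CPM in other nuclei. At least 2 of 10 myeloid genes were seen in 43.8% and 32.6% of members, beside 68.0% and 51.3% of other nuclei. ASPC genes were at 1395 and 1103 CPM in members. Mural genes, which mark pericytes and smooth muscle, were at 485 and 171 CPM. The level labelled WT rested largely on 1 nucleus, which held 35 of the 49 mural counts, and 15 of the 33 labelled KO were also in 1 nucleus. Epithelial genes were at 39.6 and 0 CPM, and mesothelial and Schwann cell genes at 9.90 and 0 CPM. The part of these transcripts in the differences below was not tested. Some values are also given without the members that carried at least 2 myeloid, B cell, T cell or mural genes. That leaves 22 members labelled WT and 58 labelled KO. This step moved 43 gene and list ratios beyond counting error and turned the direction of 3. Not all of these are named below, and the step was not run for the share with high endothelial venule genes.

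Among the rule genes themselves, whose levels are a description because they chose the members, the libraries did not differ evenly. Cdh5, the adherens junction cadherin of endothelium, was at 623 CPM in members labelled WT and 560 CPM in members labelled KO, a ratio of KO over WT of 0.897 (0.652 to 1.24). Rasip1, a regulator of vessel lumen formation, was at 416 and 352 CPM. Pecam1, the platelet endothelial adhesion molecule, was at 1207 and 917 CPM (ratio 0.760, 0.600 to 0.965), and its level in other nuclei was 172 and 26.1 CPM. In contrast, the VEGF receptor Flt1 was at 307 and 1585 CPM (ratio 5.17, 3.57 to 7.74), the transcription factor Mecom at 336 and 2678 CPM (ratio 7.96) and the ETS factor Erg at 39.6 and 383 CPM, from 4 and 74 counts (ratio 9.68). Ptprb, a phosphatase that acts on TIE2 and VE-cadherin, was at 762 and 1264 CPM (ratio 1.66, 1.28 to 2.17), and its log2 ratio turned to -0.39 with the median of its intron quintile, described next, taken off. That of Pecam1 turned to 0.26 among members with at least 1000 detected genes.

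These ratios moved with the intron content of the gene, in members and in other nuclei alike. Among 1125 genes with at least 50 counts over the members of both libraries, 456 (40.5%) were at least 2 times higher in members labelled KO, and 163 (14.5%) had a CPM ratio of KO over WT at or under 0.5. The median log2 ratio was 0.50. For genes with at most 3 kb of introns it was -1.05, and for genes with more than 100 kb of introns it was 1.70. The same bins gave -1.39 and 1.33 in the nuclei that were not members. Cdh5 and Rasip1 have 38.9 and 8.40 kb of introns, and Mecom and Erg have 586 and 224 kb. The genes compared were also split by total intronic length into 5 quintiles of 220 or 221 genes each, whose median log2 ratios ran from -0.93 for the shortest to 2.26 for the longest. With the median of its quintile taken off each gene, 245 of 1104 genes were at a ratio of at least 2 and 161 at most 0.5, and the share of such genes that was higher in the KO-labelled library was 60.3% instead of 73.7%. Of 65 genes of the endothelial lists that were compared, 31 were at a ratio of at least 2, and 20 of those remained so with the quintile median taken off. The 11 that did not were Mecom (log2 ratio 0.73), Emcn (0.72), Tek (0.63), Prex2 (0.22), Dysf (0.98), Dock9 (-0.71), Cd36 (0.0053), Pparg (0.96), Nrp1 (0.035), Nrp2 (0.044) and Elk3 (0.69). Of 5 at or under 0.5, Nr2f2 and Glycam1 remained there and Cldn5 (-0.31), Fabp4 (-0.37) and Fabp5 (-0.65) did not. Of 49 whose interval left out 1, the direction turned for 10. The ratio in other nuclei is given below beside a number of these genes.

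**Figure D2:**
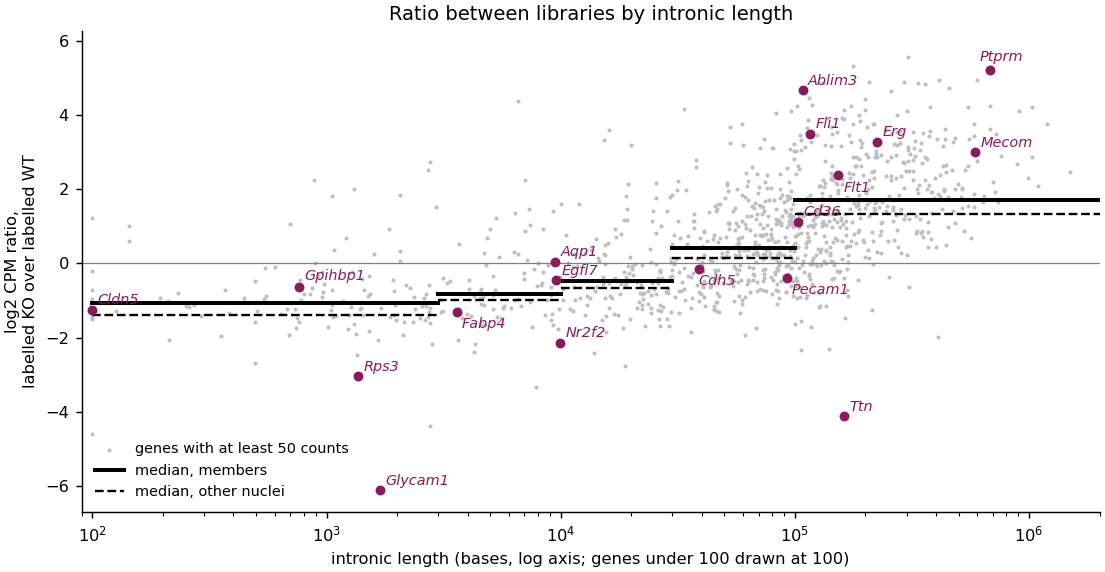
The log2 ratio of CPM in members, KO-labelled library over WT-labelled library (y axis), against summed intronic length in bases (log x axis) for genes with at least 50 counts, with the median per bin in members (solid line) and in other nuclei (dashed line). Medians climbed from -1.05 in the shortest bin to 1.70 in the longest in members and from -1.39 to 1.33 in other nuclei, while Ttn and Glycam1 lay far below the medians of their bins.

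Of the pan-endothelial genes outside the rule, 19 of 28 reached 50 counts. The ratio was at least 2 for 11 of these and at most 0.5 for 1, beside the 40.5% and 14.5% of all tested genes, and their median log2 ratio was 1.55, or 0.94 after the intron quintile median was taken off. Ushbp1 was at 485 and 487 CPM, with a log2 ratio of 0.94 after the intron quintile median was taken off. The orphan receptor Tie1 was at 148 and 176 CPM. Kdr, the main VEGF receptor, was at 238 and 259 CPM, with 10 of its 24 counts labelled WT in 1 nucleus and a ratio of 1.70 (0.923 to 3.32) without it. Egfl7 was at 1178 and 860 CPM (ratio 0.730, 0.574 to 0.932), and its direction turned with the intron quintile median taken off (log2 ratio 0.48) and with at least 1000 detected genes (0.31). Cldn5 was at 821 and 347 CPM (ratio 0.423, 0.302 to 0.590), and 0.548 without a nucleus that held 25 of its 83 counts labelled WT. Endoglin (Eng) was at 287 and 461 CPM, the adhesion molecule Esam at 198 and 404 CPM and the scaffold gene Shank3 at 228 and 881 CPM. The ETS factor Fli1 was at 148 and 1673 CPM (ratio 11.3, and 2.10 in other nuclei), and the receptor phosphatase Ptprm at 59.4 and 2186 CPM. Sox18 was at 11 and 5 counts, and Sox7 at 0 and 12 counts. Sox7 was 2.09-fold higher in the KO-labelled library against a floor of 3 counts over the group, with a lower interval limit of 1.45.

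Most members carried capillary genes. At least 2 of the 14 capillary genes had a UMI in 42 of 48 members labelled WT (87.5%, 74.8 to 95.3) and 83 of 86 labelled KO (96.5%, 90.1 to 99.3). The same threshold was met by 14.2% and 42.2% of the nuclei with lymphocyte genes, which had median depths of 1110 and 3442.5 UMIs. It was also met by 35.6% and 84.0% of the mural-marker nuclei (16 of 45 and 21 of 25) and by 19.9% and 57.9% of all other nuclei. Whether lymphocytes express genes of this list themselves was not tested. With every nucleus thinned to 1000 UMIs, which left out 15 and 12 members, the shares were 57.6% of 33 and 83.8% of 74, beside 7.68% and 11.4% in the lymphocyte-marker nuclei, 16.3% and 43.5% in the mural-marker nuclei and 11.1% and 24.7% in all other nuclei. The difference was 9.01 points (-1.04 to 22.1) at full depth and 26.2 points (6.32 to 46.1) after thinning.

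**Figure D3:**
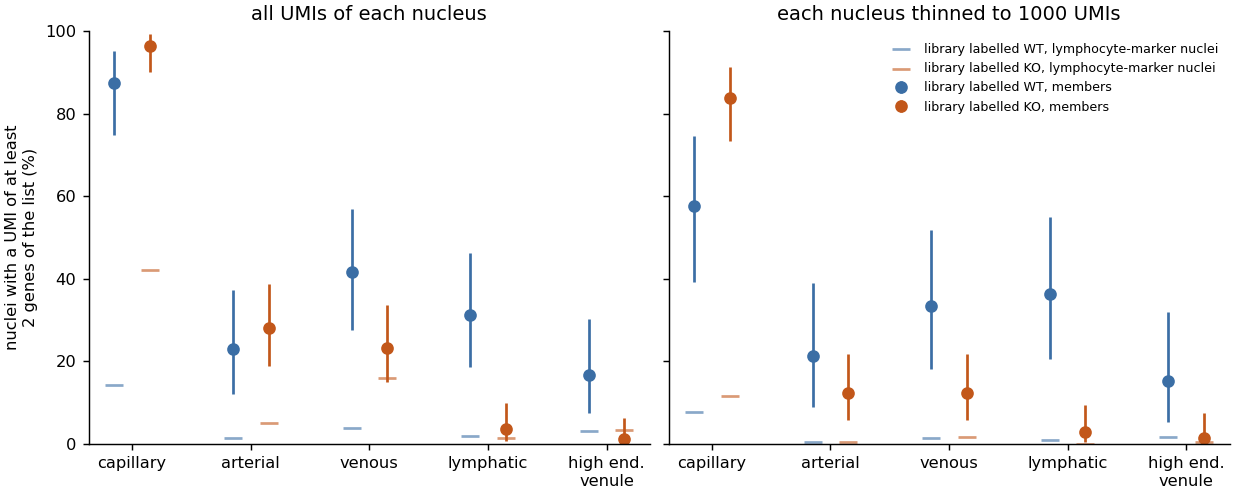
Share of nuclei in percent (y axis) with a UMI of at least 2 genes of each vessel list (x axis), at full depth (left) and with each nucleus thinned to 1000 UMIs (right). Points are members with exact 95% binomial intervals and dashes are lymphocyte-marker nuclei of the same library; lymphatic genes were found in 31.2% of members labelled WT and 3.49% of members labelled KO.

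Of 17 fatty acid handling genes, 9 reached 50 counts, with a median log2 ratio of -0.06. Among these, 3 were at a ratio of at least 2 and 2 at or under 0.5, beside 40.5% and 14.5% of all tested genes. The 2 lower ones, Fabp4 and Fabp5, rested on a single nucleus. Cd36 (chr5:17781690-17888959) was at 1514 CPM in members labelled WT and 3300 CPM in members labelled KO (ratio 2.18, 1.82 to 2.62) and was seen in 38 of 48 and 74 of 86 members. Its ratio in other nuclei, which include adipocytes, was 3.02, from 411 to 1241 CPM, and the log2 ratio in members was 0.0053 with the intron quintile median taken off. Gpihbp1 was at 930 and 601 CPM (ratio 0.646, 0.488 to 0.857). However, 51 of its 94 counts labelled WT came from 1 nucleus. Without it the ratio was 1.28 (0.895 to 1.86), and with the intron quintile median taken off the log2 ratio was 0.30.

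Fabp4 (chr3:10204342-10208616) gave the same picture. It was at 18209 and 7357 CPM (ratio 0.404, 0.377 to 0.433), but 1325 of its 1840 counts labelled WT were in that same nucleus. Without it the level was 5621 CPM and the ratio 1.31 (1.18 to 1.45), and the median nucleus was at 5797 and 9081 CPM. In other nuclei Fabp4 was at 5099 and 3880 CPM. Fabp5 followed, with 45 of 80 counts in the same nucleus and a ratio of 0.692 (0.441 to 1.10) without it. That nucleus had 9433 UMIs and also 35 UMIs of mural genes, among them all 14 counts of the pericyte gene Higd1b and 7 of 8 of Kcnj8 in members labelled WT. Whether it is 1 nucleus or 2 captured together was not tested.

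Several other capillary genes differed by no more than counting error before the intron quintile median was taken off. Aqp1 was at 574 and 591 CPM (ratio 1.03, 0.744 to 1.44), Cd300lg at 277 and 332 CPM, Btnl9 at 257 and 363 CPM and Timp4 at 198 and 192 CPM. Car4 was at 238 and 295 CPM (ratio 1.24, 0.759 to 2.09), and at 1.93 (1.06 to 3.76) without the same nucleus. With the quintile median taken off, the log2 ratios were 0.97 for Aqp1, 1.19 for Cd300lg, 0.74 for Btnl9, 0.89 for Timp4 and 1.25 for Car4. The median log2 ratio of the capillary genes with at least 50 counts moved from 0.26 to 0.94. The homeobox gene Meox2, which with Tcf15 drives fatty acid uptake in muscle and heart capillaries, was at 139 and 741 CPM (ratio 5.35, 3.08 to 10.0), while Tcf15 was at 109 CPM in both, with 7 of 11 counts labelled WT in that nucleus. Rgcc, a cell cycle regulator of capillary endothelium, was at 99.0 and 300 CPM (ratio 3.04, 1.54 to 6.66, and 4.59 without the nucleus labelled WT that held 4 of 10 counts), beside 110 and 356 CPM in other nuclei. Pparg, the receptor that governs Fabp4 and Cd36, was at 317 and 1342 CPM (ratio 4.24), and its level in other nuclei was 152 and 1138 CPM. Caveolin 1 (Cav1) was at 168 and 787 CPM, beside 165 and 647 CPM in other nuclei. The HDL receptor Scarb1, higher in members than in other nuclei of both libraries, was at 455 and 668 CPM (ratio 1.47, 1.04 to 2.10). Its log2 ratio was -0.32 without members carrying immune or mural genes.

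**Figure D4:**
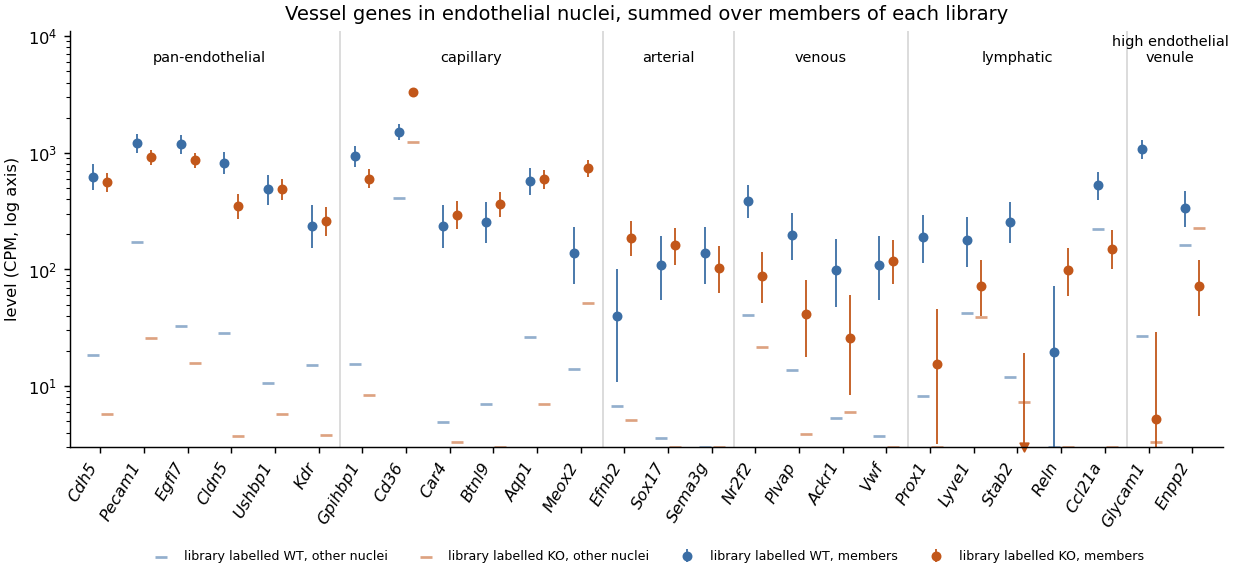
Level in CPM (log y axis) of named vessel genes (x axis) summed over the members of each library, with exact 95% Poisson intervals, and the level in other nuclei as dashes; values under 3 CPM are drawn at 3, and the triangle marks 0 counts (Stab2, KO-labelled library). Without a correction for intron content, Cdh5, Ushbp1, Kdr and Aqp1 lay close together in the libraries, while Nr2f2, Plvap, Prox1, Stab2 and Glycam1 were higher in the WT-labelled library.

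Arterial genes were sparse, and no gene of the 14 reached 50 counts. Their sum was 901 CPM in members labelled WT and 933 CPM in members labelled KO (ratio 1.04, 0.800 to 1.35), well above 112 and 122 CPM in other nuclei. At least 2 of them were seen in 11 of 48 (22.9%, 12.0 to 37.3) and 24 of 86 members (27.9%, 18.8 to 38.6), against 1.28% and 4.92% of lymphocyte-marker nuclei, 7 of 45 and 5 of 25 mural-marker nuclei and 1.75% and 7.66% of all other nuclei. The intervals of the mural-marker nuclei (6.49 to 29.5 and 6.83 to 40.7) overlapped those of the members. The difference between the members of 4.99 points (-12.1 to 20.3) was within counting error. Its direction turned at 1000 UMIs, where it was -9.05 points (-27.9 to 6.54). Efnb2, the arterial ephrin, had 4 and 36 counts (ratio 4.71, 1.69 to 18.2). Sox17 was at 109 and 161 CPM and the semaphorin Sema3g at 139 and 104 CPM. The Notch ligand Dll4 had 4 and 17 counts, and Jag1 was at 139 and 36.3 CPM (ratio 0.262, 0.0894 to 0.693), with 6 of its 14 counts labelled WT in 1 nucleus and a ratio of 0.452 (0.140 to 1.43) without it. Gja4, the connexin 37 gene, had 7 counts labelled WT, 4 of them in 1 nucleus, and 0 labelled KO. It was 4.46-fold lower labelled KO against a floor of 3 counts, with an upper interval limit of the ratio of 0.363. Without that nucleus the limit was 1.25. Bmx had 8 counts in 3 nuclei labelled WT and 7 counts in 1 nucleus labelled KO.

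The venous list was higher in the WT-labelled library as a sum, though its genes went both ways. Its sum was 1326 and 808 CPM in members (ratio 0.609, 0.481 to 0.774), and 269 and 361 CPM in other nuclei. Of 6 genes with at least 20 counts, 2 were higher labelled WT, 1 was higher labelled KO and 3 were within counting error. Their median log2 ratio was -0.10. Nr2f2 (chr7:70351946-70366746) was at 386 and 88.1 CPM (39 and 17 counts, ratio 0.228, 0.121 to 0.413), beside 40.5 and 21.8 CPM in other nuclei. It was seen in 13 of 48 and 9 of 86 members. Plvap, which forms the diaphragms of fenestrated and venous endothelium, was at 198 and 41.4 CPM (20 and 8 counts, ratio 0.209, 0.0798 to 0.496). The chemokine receptor Ackr1 had 10 and 5 counts, all 5 of the latter in 1 nucleus. Von Willebrand factor (Vwf) was at 109 and 119 CPM, with 8 of 11 and 9 of 23 counts in 1 nucleus each. Ephb4, the venous ephrin receptor, had 5 and 23 counts (ratio 2.41, 0.895 to 8.11), and Sele, the cytokine-induced E-selectin, had 0 in both. Il1r1 had 2 and 24 counts (ratio 6.28, 1.56 to 54.8), with 16 of the 24 in 1 nucleus and a ratio of 2.12 (0.423 to 20.5) without it.

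At least 2 venous genes were seen in 20 of 48 members labelled WT (41.7%, 27.6 to 56.8) and 20 of 86 labelled KO (23.3%, 14.8 to 33.6). The lymphocyte-marker nuclei were at 3.81% and 16.0%, the mural-marker nuclei at 31.1% and 24.0% and all other nuclei at 216 of 3601 and 732 of 2858 (25.6%), so the share in members labelled KO was not above that background at full depth. At 1000 UMIs it was 12.2%, and other nuclei were at 3.16%. The difference was -18.4 points (-35.7 to -0.957), and -21.2 points (-40.8 to -3.01) at 1000 UMIs. Without the members that carried immune or mural genes it was -1.41 points (-26.7 to 19.7). Of the 20 members with venous genes labelled WT, 11 also had at least 2 lymphatic genes. Nr2f2 is expressed by lymphatic as well as venous endothelium, and 30 of its 39 counts labelled WT were in nuclei with lymphatic genes.

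Lymphatic genes were seen in a larger share of members labelled WT. At least 2 of the 10 were seen in 15 of 48 members labelled WT (31.2%, 18.7 to 46.3) and in 3 of 86 labelled KO (3.49%, 0.725 to 9.86). The lymphocyte-marker nuclei were at 1.88% and 1.23% and all other nuclei at 2.61% and 3.04%, so the share in members labelled KO was not above that background at full depth. At 1000 UMIs that share was 2.70% (2 of 74, 0.329 to 9.42), beside 0.327% of other nuclei and 0 of 236 lymphocyte-marker nuclei labelled KO. The difference was -27.8 points (-43.0 to -13.7), -33.7 points (-52.3 to -16.3) at 1000 UMIs and -16.5 points (-38.6 to -1.45) without members that carried immune or mural genes. With at least 1000 detected genes, which left 16 and 49 members, it was -62.6 points. Prox1 (chr1:190118035-190170827) had 19 counts in 8 members labelled WT and 3 counts in 1 member labelled KO (ratio 0.0827, 0.0157 to 0.281). Stab2 (chr10:86841194-87008038), a scavenger receptor for hyaluronan, had 26 counts in 10 members labelled WT and 0 labelled KO, 16.6-fold lower there against a floor of 3 counts. In other nuclei it was at 11.9 and 7.36 CPM (ratio 0.618). Prox1 or Stab2 was present in 10 members labelled WT (20.8%, 10.5 to 35.0) and 1 labelled KO (1.16%, 0.0294 to 6.31).

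Within the WT-labelled library these transcripts were found together. All 19 Prox1 counts, all 26 Stab2 counts, 16 of 18 counts of the hyaluronan receptor Lyve1 and 10 of 11 counts of Tbx1 lay in the 15 nuclei with lymphatic genes, which is in part how those nuclei were picked. Genes that played no part in picking them also differed. The 15 nuclei gave 48182 of the 101049 UMIs of members labelled WT. They held 4 of the 94 Gpihbp1 counts and 37 of the 153 Cd36 counts, and 14 of them had Cd36. Of the counts outside them, 51 of 90 for Gpihbp1 and 33 of 116 for Cd36 were in the 1 nucleus of 9433 UMIs. The 15 nuclei also held 81 of 82 counts of Ttn (chr2:76703980-76982557), the giant sarcomere gene of muscle. These were spread over 10 nuclei, with 37 and 16 counts in the 2 richest. Of the 8 myocyte genes only 2, Ttn included, had any count in members labelled WT. Of these 15 nuclei, 5 had neither Prox1 nor Stab2, and 6 had at least 2 B cell genes.

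The 3 nuclei with lymphatic genes in the KO-labelled library had another pattern of genes. Of the 3, 1 held 3 Prox1, 13 Reln, 5 Mmrn1, 20 Ccl21a and 4 Tbx1 counts and another held 6 Reln, 9 Mmrn1 and 9 Ccl21a counts without Prox1. The remaining nucleus, of 3397 UMIs, had a single count each of Flt4 and Pdpn. A member labelled KO of that same depth held 16 of 48 Dcn and 6 of 12 Pi16 counts, both genes of the ASPC list. None of the 3 had a Stab2 or Ttn count. Reln and Mmrn1, both genes of lymphatic endothelium, had 2 and 6 counts in all members labelled WT. Ccl21a had 53 counts in members labelled WT and 29 labelled KO, and its level in other nuclei was 224 and 2.50 CPM. Ccl21a has near-identical copies in the mouse genome, so its counts are uncertain. With 3 nuclei the pattern in the KO-labelled library is a description of single nuclei.

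**Figure D5:**
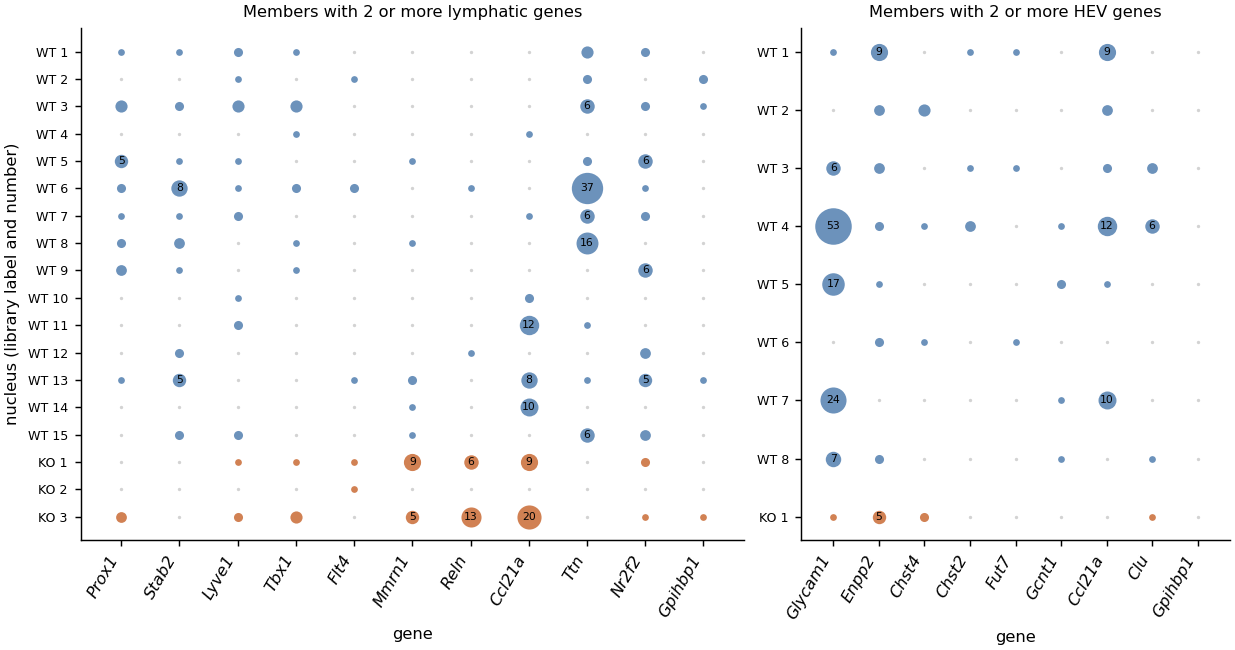
UMIs of named genes (x axis) in each member (y axis, library label and number) with at least 2 lymphatic genes (left) or at least 2 high endothelial venule (HEV) genes (right). Circle area is the UMI count, printed inside the circle from 5 upwards, and a small grey dot is 0; Ttn and Stab2 appear in nuclei labelled WT, Reln and Mmrn1 reach their highest counts in 2 nuclei labelled KO, and WT 4 on the right, with 53 Glycam1 counts, is WT 11 on the left.

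Members with high endothelial venule genes were nearly all labelled WT. At least 2 of 9 were seen in 8 of 48 (16.7%, 7.48 to 30.2) and 1 of 86 members (1.16%, 0.0294 to 6.31), with 2.96% and 3.28% of the lymphocyte-marker nuclei. Nuclei with mural genes labelled WT met the same threshold at 22.2% (10 of 45), and held Enpp2 at 1057 CPM but Glycam1 at 8.20 CPM. The difference between the members was -15.5 points (-29.1 to -4.97), and -13.8 points (-30.6 to -2.13) at 1000 UMIs. Glycam1 (chr15:103562759-103565081) had 108 counts in 6 members labelled WT, at 53, 24, 17, 7, 6 and 1 per nucleus, and 1 count labelled KO. Its level in other nuclei was 27.1 and 3.35 CPM. Chst4, the sulfotransferase that completes the L-selectin ligand, had 6 and 2 counts, and the fucosyltransferase Fut7 had 3 and 0. Enpp2, which makes lysophosphatidic acid and is also an adipocyte gene, was at 336 and 72.5 CPM, while other nuclei were at 164 and 226 CPM. Madcam1 had 0 counts and 1 count, and the transcription factor gene Nkx2-3 had 0 in both.

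None of these 9 nuclei held a Gpihbp1 count. Of the 8 labelled WT, 3 were also among the nuclei with lymphatic genes, through Ccl21a, Lyve1 or Mmrn1 and not through Prox1 or Stab2. The nucleus with 53 Glycam1 counts also held 12 Ighm and 12 Ccl21a counts. Genes of lymphoid stroma (Ccl19, Cxcl13, Ccl21a, Grem1 and Clu) were at 940 and 181 CPM in members and at 468 and 23.2 CPM in other nuclei. The share of members with 2 or more of these stromal genes was 14.6% and 1.16%, and the number of lymphocyte-marker nuclei differed between the libraries in the same direction, at 2496 and 244. The part of lymphoid tissue in these values was not tested.

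Leaving out every nucleus with lymphatic or venule genes left 28 members labelled WT and 82 labelled KO. In these, Gpihbp1 was at 1936 and 636 CPM (90 and 115 counts), Cd36 at 2474 and 3508 CPM and Aqp1 at 1011 and 631 CPM. The gap in Gpihbp1 rests in part on 1 nucleus of 9433 UMIs, which held 51 of the 90 counts labelled WT. It also held 33 of the 115 Cd36 counts labelled WT.

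The receptors and ligands of the VEGF, angiopoietin and Notch pathways summed to 2504 CPM in members labelled WT and 6740 CPM in members labelled KO, a ratio of 2.69 that was matched by 2.81 in other nuclei. Of 24 genes 7 reached 50 counts and 6 of those were at a ratio of at least 2, beside 40.5% of all tested genes. Their median log2 ratio was 1.67, and 0.63 after the intron quintile median was taken off. The co-receptor Nrp1 was at 396 and 881 CPM (ratio 2.22, and 2.20 in other nuclei). Nrp2, the co-receptor of venous and lymphatic endothelium, was at 287 and 642 CPM (ratio 2.24), with 0.943 in other nuclei, and its log2 ratio was 0.044 with the intron quintile median taken off. Notch1 was at 198 and 98.4 CPM and Notch4, the endothelial Notch receptor, at 69.3 and 176 CPM. Tek, the angiopoietin receptor, was at 69.3 and 233 CPM (ratio 3.37, and 3.09 in other nuclei), and its antagonist ligand Angpt2 had 2 and 25 counts. Without carriers of immune or mural genes the log2 ratio of Notch4 was -0.81, and Angpt2 had 0 counts labelled WT, so that its ratio could not be given. Rbpj, the DNA-binding effector of Notch, had 8 and 262 counts, 116 of the latter in 1 nucleus of 6561 UMIs. Without that nucleus its ratio was 9.89 (4.89 to 23.3). A member labelled KO of the same depth held 48 of 118 Mrc1 and 13 of 38 Cd163 counts, both genes of the myeloid list. The division genes Mki67 and Top2a had 2 and 1 counts and 1 and 0 counts, and the tip cell gene Esm1 had 1 and 0.

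Junction genes summed to 3721 and 3989 CPM (ratio 1.07, 0.946 to 1.22). Of 7 with at least 50 counts, 4 were at a ratio of at least 2 and 1, Cldn5, at or under 0.5, beside 40.5% and 14.5% of all tested genes. The tight junction scaffold Tjp1 was at 139 and 430 CPM and Jam2 at 99.0 and 264 CPM, while Jam3 was at 208 and 77.7 CPM (ratio 0.374). The leukocyte adhesion genes summed to 1455 and 1103 CPM. Icam1 had 8 and 3 counts and Icam2, the constitutive endothelial form, had 13 and 8. The chemokine Cxcl12 was at 465 and 249 CPM (ratio 0.535), with a log2 ratio of 0.030 after the intron quintile median was taken off and 0.11 among members with at least 1000 detected genes.

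Of 24 endothelial transcription factors 13 reached 50 counts, 6 with a ratio of at least 2 and 1 at or under 0.5, beside 40.5% and 14.5% of all tested genes. The median log2 ratio was 0.87, and -0.05 with the intron quintile median taken off. Klf2, the factor induced by flow, was at 297 and 150 CPM (ratio 0.506, and 0.321 in other nuclei), with a log2 ratio of -0.049 after that step. Tcf4 was at 1564 and 2849 CPM (ratio 1.82, and 1.06 in other nuclei), but its log2 ratio was -1.39 with the intron quintile median taken off and -0.11 without carriers of immune or mural genes. Foxp1 was at 366 and 648 CPM (ratio 1.77, and 0.692 in other nuclei), and its log2 ratio turned to -1.44 with the quintile median taken off. Mef2c was at 584 and 503 CPM. The hypoxia factor Epas1 had 8 counts labelled WT and was at 79.2 and 363 CPM.

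Among genes at least 2 times higher in members than in other nuclei of the library where they were higher, 10 were named in each direction. Because members had to exceed other nuclei in only 1 library, that of the higher level, a ratio in members farther from 1 than in other nuclei is favoured by the choice, and the values in other nuclei are a description. Those higher in the KO-labelled library were mostly long genes, except Gm14211 with 6573 bases of introns and Gm26883 with no length in the annotation. Ptprm (chr17:66666848-67354491) was at 59.4 and 2186 CPM (ratio 36.8, 16.8 to 101), with a ratio of 32.9 in other nuclei. Magi1, a junction scaffold, was at 69.3 and 2134 CPM (ratio 30.8, 14.8 to 77.1), with 14.1 in other nuclei. Arl15 had a ratio of 28.3 in members, 69.8 without the nucleus that held 3 of its 5 counts labelled WT, and 35.6 in other nuclei. The growth factor gene Pdgfd had 3 and 170 counts (ratio 29.7, 9.98 to 145) and Myo1d 2 and 169 counts (ratio 44.2, 12.1 to 368), with ratios of 31.9 and 25.2 in other nuclei. Ablim3, an actin-binding protein, was at 69.3 and 1751 CPM in members (ratio 25.3, 12.1 to 63.4, and 43.8 without the nucleus that held 3 of its 7 counts labelled WT), and its ratio in other nuclei was 3.11 (2.12 to 4.72). The kinase Grk5 had 1 and 124 counts, with a ratio of 12.2 in other nuclei. The unnamed genes Gm26883, Gm14211 and Gm15614 had 0 counts labelled WT and 316, 118 and 73 labelled KO, at least 55.1-fold, 20.6-fold and 12.7-fold higher. In other nuclei their ratios were 368, 186 and 17.6.

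In the opposite direction Glycam1 led, at 1069 and 5.18 CPM. The matrix protein gene Mgp was at 980 and 46.6 CPM (ratio 0.0476, 0.0211 to 0.0941), but 74 of its 99 counts labelled WT were in 1 nucleus, without which the ratio was 0.184 (0.0755 to 0.407). In other nuclei the ratio of Mgp was 1.00 (0.882 to 1.15). Ttn was at 811 and 46.6 CPM (ratio 0.0575, 0.0254 to 0.114), and 0.0924 without the nucleus with 37 counts, and its ratio in other nuclei was 2.69. The metalloprotease gene Adam33 was at 416 and 41.4 CPM, with 19 of 42 counts in 1 nucleus and a ratio of 0.161 without it, and 4 of 8 counts labelled KO in another, without which the ratio was 0.0508. The ribosomal protein genes Rps3, Rpl37 and Rpl3 had ratios of 0.122, 0.239 and 0.193, and ratios of 0.234, 0.366 and 0.357 in other nuclei. The nucleus of 9433 UMIs given above held most of their counts in any 1 nucleus labelled WT. Without it Rps3, Rpl37 and Rpl3 were at 415, 546 and 240 CPM labelled WT. Other nuclei were at 255, 395 and 173 CPM, so members were then less than 2 times higher. The ratios without that nucleus were 0.162, 0.351 and 0.302. These ribosomal genes have near-identical processed copies in the genome, and their counts are uncertain for that reason. Cmah, which makes N-glycolylneuraminic acid, was at 534 and 109 CPM (ratio 0.204, and 0.110 without the nucleus labelled KO that held 10 of its 21 counts), with 0.385 in other nuclei. Nr2f2 and Fabp4, given above, complete the set. Without the nucleus with most counts labelled WT, Adam33, Cmah and Fabp4 were at 258, 426 and 5621 CPM in members. Other nuclei were at 138, 241 and 5099 CPM, so these genes too were then less than 2 times higher in members.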

How the data were processed

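The authors aligned and counted single-nucleus libraries (10x Genomics 3' v3.1) with Cell Ranger 6.1.1, per the file headers, and the submitters' processing notes name mm10 and Seurat 4. The deposited values are raw UMI counts for 31053 genes and 5000 barcodes in each of 2 libraries, with totals of 9376351 (labelled WT) and 19655049 (labelled KO). Whether introns were counted or free RNA removed is not given in the sources used here. No gene or barcode column lacked a sample.

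Members were found by the stated rule (Python 3.11.15, pandas 2.3.3, SciPy 1.17.1), and counts were summed over members and expressed as CPM. Members and gene lists were chosen with earlier results of these data known. A gene was compared at 50 or more counts over both libraries, without mt- genes, and set apart at a ratio of at least 2 or at most 0.5. Intervals are exact for shares (Clopper-Pearson), levels (Poisson) and ratios (conditional binomial) and approximate for differences of shares (square-and-add), all at 95% and covering counting error only. A group at 0 was replaced by a floor of 3 counts for bounds, which leave out counting error in the other group. Thinning drew 1000 UMIs per nucleus. Intronic lengths came from an annotation of an earlier mouse build, used only for lengths and matched for 98.1% of genes compared. For the correction, genes compared were split into 5 quintiles of intronic length. Positions are those of RefSeq, GRCm38.p6, start and end of the gene.

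Genes named were the 10 highest and 10 lowest ratios by the interval limit nearest to 1 among genes at least 2 times higher in members than in other nuclei, the 15 most raised in members with at least 20 counts in each library, and genes of the lists. Doublets were scored with Scrublet in scanpy 1.11.5, which called 0 of 3649 and 92 of 2944 nuclei by its own threshold, so it had not worked in the first library, and the main values keep all nuclei. Removing nuclei above the score at the upper 4% took out 117 in each library, which is less than 4% of that labelled WT, and with them 3 and 5 members. edgeR 4.0.16 was used only for TMM scaling factors of the summed counts. The calculations were tested on simulated data. The alternatives changed depth, rule, scaling, doublets, filters and gene structure. Those leaving out single nuclei, nuclei with lymphatic or venule genes, or the adipocyte and ASPC limits were chosen after seeing the data.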

Additional observations from a re-analysis of the deposited data

Results flagged for a closer look

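Some barcodes outside the quality filter, which enter no comparison above, met the endothelial marker rule. They numbered 29 of 1351 in the library labelled WT (2.15%) and 43 of 2056 in the library labelled KO (2.09%), above the 0.222% and 0.146% that a count of 0 would allow. Of these, 9 and 12 had fewer than 500 detected genes and the others more than 5% mitochondrial UMIs, and their median depth was 1553 and 1168 UMIs.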

How the results depend on the processing

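No paired analysis was possible because each genotype has 1 library. The member share difference of 1.61 points became 0.423 with at least 1000 detected genes, -0.471 at 1% mitochondrial UMIs, 0.883 with 2 rule genes, -0.978 without lymphocyte-marker nuclei in the denominator and 3.03 without the adipocyte and ASPC limits. The capillary difference was 26.2 points at 1000 UMIs and 25.6 with 3 genes, and the lymphatic difference -62.6 points with at least 1000 detected genes. Genes at a ratio of at least 2 and at most 0.5 numbered 1120 and 533 at 20 counts, 194 and 55 at 100 counts, 179 and 40 without members carrying immune or mural genes, where fewer genes were tested, and 245 at least 2 with intron quintile medians taken off. Log2 ratios changed sign with the quintile medians taken off for Gpihbp1 (0.30), Egfl7 (0.48), Cxcl12 (0.030), Ptprb (-0.39), Tcf4 (-1.39), Angptl4 (0.17), Foxp1 (-1.44), Ramp2 (0.24), Dock9 (-0.71) and Zeb1 (-0.51). With at least 1000 genes this held for Pecam1 (0.26), Egfl7 (0.31), Cxcl12 (0.11) and Vcam1 (0.38). Without immune or mural carriers it held for Scarb1 (-0.32), Notch4 (-0.81) and Tcf4 (-0.11). Without lymphatic and venule nuclei it held for Scarb1 (-0.046), Lyve1 (0.50) and Ttn (0.85), whose counts labelled WT lay nearly all in those nuclei, and without 1 nucleus for Fabp4 (0.39) and Gpihbp1 (0.36). The cause was not tested. Of the other comparisons, 44 of the shares and counts and 875 of the gene and list ratios stayed within counting error of the value reported, or within 1.5 times for counts of genes. A further 174 gene and list ratios moved beyond counting error without a called direction turning. TMM scaling moved the median log2 ratio of all genes from 0.50 to 0.68 and leaving out Malat1 and mt- genes to 0.35. A library at 0 gave no value where the floor set no bound, as for Sox7 and Angpt2 without immune or mural carriers. No gene of the arterial list reached 50 counts.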
